A study of Homo sapiens with 6 samples.

Results

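KIT, IL3RA and CSF1R, which encode receptors for stem cell factor, interleukin-3 and colony stimulating factor 1, were taken by gene name from the deposited table of SETD8 knockout against control cells. All 3 were present among its 7983 genes. The cells were Kasumi-1, an established human acute myeloid leukaemia line with the t(8;21) translocation, which joins RUNX1 to RUNX1T1. SETD8 is the histone H4 lysine methyltransferase now named KMT5A. One group of 3 libraries carried sgSETD8 and the genotype SETD8 knockout, made with CRISPR/Cas9, and the other 3 carried sgNT and the genotype WT (control). Both groups grew in RPMI medium with serum and antibiotics, and no cytokine is named in their protocol. The labels do not say whether the numbers within a group stand for separate cultures, clones or guides, so p-values rest on a spread between samples that may be technical alone.

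The authors' deposited table holds genes with an unadjusted p up to 0.049998, and genes that it does not list were not analysed here. Reads in listed genes ranged from 11721821 to 12557974 in the knockout libraries and from 10966349 to 11690249 in the control libraries. KMT5A itself read 880, 933 and 939 normalized counts in the knockout libraries, against 1191, 1212 and 1255 in the control libraries. Its log2 fold change was -0.41, with an SE of 0.07 and an adjusted p of 5.65e-05, so the transcript persisted at a lower level. Transcripts that mark Kasumi-1 blasts were present: CD34 averaged 7818 ± 85.1 in knockout and 7153 ± 283 in control cells, and RUNX1T1, whose 3′ part lies in the fusion, 3054 ± 123 and 2760.3 ± 75.3 (SD, n = 3 each). The other blast markers were present but changed. KIT and MPO were lower in knockout cells (MPO 1541 against 12254), and CD33 was higher (990 against 435).

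KIT is a receptor tyrosine kinase that binds stem cell factor, the product of KITLG, and signals through PI3K, RAS and STAT proteins in blood progenitors and mast cells. CSF1R belongs to the same kinase family and binds CSF1 and IL-34, which monocytes and macrophages need to survive. IL3RA, also called CD123, is a cytokine receptor chain without a kinase. It binds interleukin-3 and signals through JAK2 and STAT5 only together with the shared beta chain, CSF2RB. Kasumi-1 is known to carry an activating mutation of KIT, and CD123 is a surface antigen of many leukaemic blasts.

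The 3 receptor genes did not move together after SETD8 knockout. KIT, one of the most abundant transcripts in the table, fell 1.39-fold, and IL3RA, a low transcript, fell 1.57-fold. CSF1R, also low, rose 1.66-fold. KIT stayed at adjusted p below 0.05 under all 18 alternative analyses, and IL3RA and CSF1R under 16 each. The ligand of KIT, KITLG, rose 3.87-fold while CSF1, the ligand of CSF1R, was listed at 0 in all 3 knockout libraries. Of 7516 genes tested, 46.7% were lower and 47.3% higher at adjusted p below 0.05 (94.1% either way, by limma), so a call alone sets none of the 3 apart in a table selected for change.

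KIT (ENSG00000157404, chromosome 4, 54657918 to 54740715, hg38, plus strand) read 42774, 44359 and 43519 normalized counts in the knockout libraries, against 59706, 61609.5 and 60797 in the control libraries. A normalized count is the number of reads in a gene divided by a size factor of its library. All knockout values lay below all control values, and libraries of a group differed little. The means were 43551 ± 793 in knockout and 60704 ± 955 in control cells (SD, n = 3 each), and the mean fell by 28.3%. On log2(value + 1), the fold change of knockout over control was -0.48 (SE 0.07, 95% interval -0.61 to -0.34, adjusted p = 2.74e-06). The authors' deposited adjusted p (DESeq2) for KIT was 7.81e-30. The share of KIT among listed reads was 0.350%, 0.368% and 0.371% in the knockout libraries and 0.533%, 0.542% and 0.529% in the control libraries. It rested on 132316 reads over the knockout libraries and 183145 over the control libraries. Because the RNA came from bulk cultures, fewer cells that express a gene and less RNA per cell cannot be told apart.

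IL3RA (ENSG00000185291, chromosome X, 1336616 to 1382689, plus strand) read 78.2, 65.5 and 75.6 normalized counts in the knockout libraries, against 115, 142 and 92.2 in the control libraries. The groups did not overlap, as for 95.4% of tested genes, and the control libraries were the more scattered. The means were 73.1 ± 6.69 in knockout and 117 ± 24.9 in control cells, a log2 difference of -0.65 (SE 0.21, 95% interval -1.08 to -0.22, adjusted p = 0.0168). The authors' deposited adjusted p (DESeq2) for IL3RA was weaker, at 0.0328. Only 66 to 81 reads per knockout library and 93 to 146 per control library lay behind these values. The call ended without SETD8 knockout 2 (log2 -0.57, adjusted p = 0.068) and without control 2 (-0.50, adjusted p = 0.13). IL3RA lies in a pseudoautosomal region, which chromosomes X and Y share. The sources used here do not say how reads that match both copies were counted, so its level may be understated in both groups. The table placed 9 such genes on chromosome X, with means of up to 10931 in knockout and 9507 in control cells. Of these, 6 were higher, 2 were lower (IL3RA and PLCXD1) and 1 was not called. Among all tested genes 47.3% were higher and 46.7% lower.

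CSF1R (ENSG00000182578, chromosome 5, 150053291 to 150113372, minus strand) read 182, 189 and 165 normalized counts in the knockout libraries, against 71.5, 109.9 and 158 in the control libraries. The knockout libraries were close together, and control 3 came within a few counts of the lowest of them. The means were 179 ± 12.1 in knockout and 113 ± 43.1 in control cells, a log2 difference of 0.73 (SE 0.21, 95% interval 0.29 to 1.17, adjusted p = 0.0089). The authors' deposited adjusted p (DESeq2) for CSF1R was weaker, at 0.0278. The highest control value was 2.20 times the lowest, while the knockout values spanned 1.14 times. SETD8 knockout 3 had 177 reads (exact 95% Poisson interval 152 to 205, counting error only) and control 3 had 159 (135 to 186), so these 2 libraries were not separated by counting error. Without control 1, the lowest library, the log2 fold change was 0.44 (adjusted p = 0.088). It was 0.47 (adjusted p = 0.17) after subtraction of the median change of genes within 5 Mb, called the neighbour correction here. The processed pseudogene RPL7P1 lies on the opposite strand within the bounds of CSF1R and read 2930.4 in knockout and 2396 in control cells. The sources used here do not state the strand setting of the counting, and the part of RPL7P1 reads in the count of CSF1R was not tested.

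**Figure D1:**
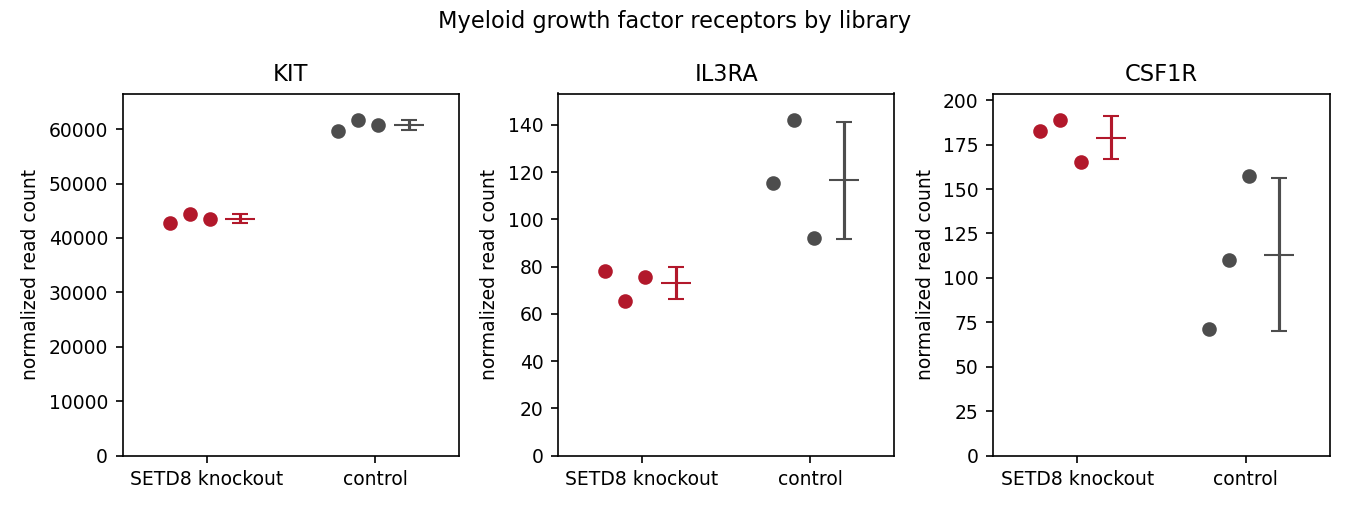
Normalized read counts of KIT, IL3RA and CSF1R (y axes, each from 0) in 3 SETD8 knockout and 3 control libraries. Points are libraries and bars the mean ± SD. The groups are far apart for KIT at 43551 and 60704, while control CSF1R values spread from 71.5 to 158, up to the edge of the knockout range.

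Levels were compared between genes as normalized counts per kilobase of the gene length in the table. KIT stood at 7829 ± 143 per kb in knockout and 10912 ± 172 per kb in control cells, rank 37 and rank 26 of the 7983 listed genes. IL3RA stood at 42.8 ± 3.91 per kb in knockout and 68.1 ± 14.6 in control cells. CSF1R stood at 34.7 ± 2.35 per kb in knockout and 21.9 ± 8.37 in control cells. KIT was the highest of 15 listed receptors of blood growth factors in both groups. IL3RA was 10th in knockout and 9th in control cells, and CSF1R was 11th and 12th. IL3RA and CSF1R did not overlap in either group, at 38.3 to 45.7 against 32.1 to 36.6 per kb in knockout and 53.9 to 83.0 against 13.9 to 30.6 per kb in control libraries. Their order in knockout cells rests on the length used: per kilobase of the longest GENCODE transcript, CSF1R stood at 44.8 and IL3RA at 42.9. In knockout cells the next receptors above IL3RA were IL6R at 48.1 ± 6.79, which overlapped it, and FLT3 at 74.5 ± 8.26 per kb, which did not.

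The balance between the receptors was read from ratios within each library, which do not depend on size factors. KIT over CSF1R was 235, 235 and 263 in the knockout libraries, against 835, 561 and 386 in the control libraries. Every knockout ratio lay below every control ratio, a 2.32-fold lower ratio on average (two-sided exact permutation p = 0.10, the smallest that 3 against 3 allows, adjusted p = 0.133 over 4 ratios). IL3RA over CSF1R was 0.429, 0.347 and 0.458 in knockout libraries, against 1.61, 1.29 and 0.585 in control libraries, 2.62-fold lower with the same p-values. In both ratios the upper gene fell and CSF1R rose, each without overlap between the groups. The separation of these ratios and its p were fixed by those changes and are no further test. KIT over IL3RA overlapped between the groups, at 547, 677 and 575 in knockout libraries and 517, 434 and 660 in control libraries (exact permutation p = 0.40). Its log2 difference, knockout minus control, was 0.18, and 3 against 3 libraries cannot show a difference between the falls of KIT and IL3RA at the 0.05 threshold by this test.

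The alpha and beta chains of the interleukin-3 receptor moved in opposite directions. CSF2RB, the signalling chain shared with the receptors for interleukin-5 and GM-CSF, read 936, 1028 and 1049.6 in the knockout libraries, against 504, 634 and 645 in the control libraries. It rose by 0.76 on the log2 scale (SE 0.09, adjusted p = 6.51e-07). IL3RA over CSF2RB was 0.0835, 0.0638 and 0.0721 in knockout libraries, against 0.229, 0.224 and 0.143 in control libraries, 2.67-fold lower without overlap (exact permutation p = 0.10, adjusted p = 0.133). This separation too was fixed by the opposite changes of the chains, each without overlap, and is no further test.

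**Figure D2:**
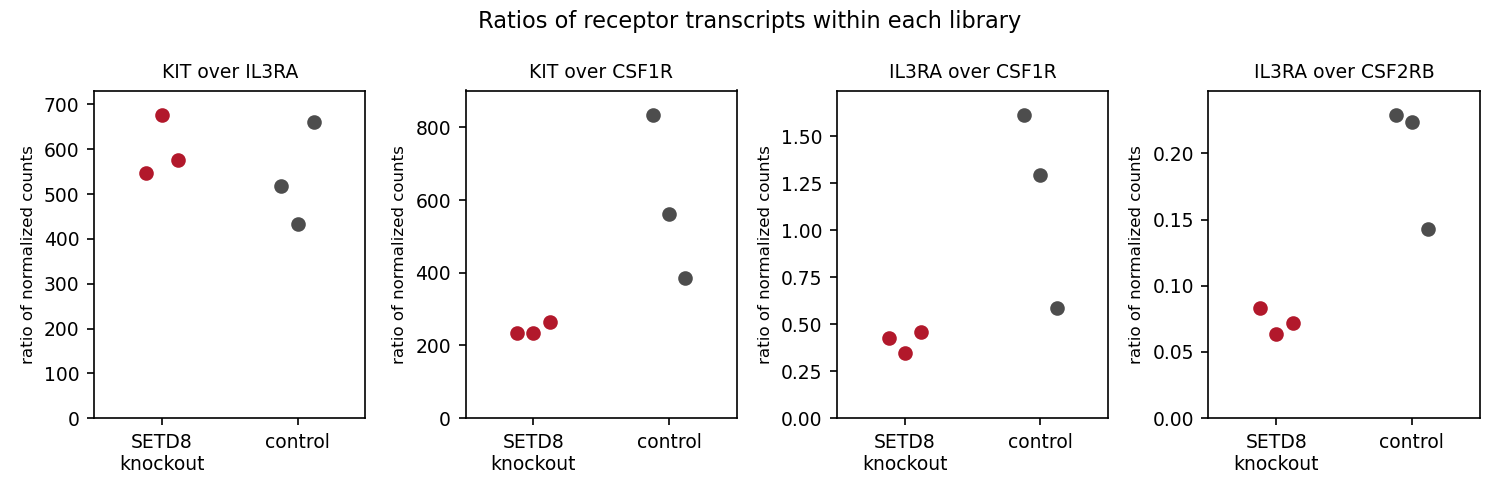
Ratios of normalized counts of 2 genes within each library (y axes from 0), with 3 SETD8 knockout libraries left of 3 control libraries in each panel. The groups do not overlap for KIT over CSF1R, IL3RA over CSF1R and IL3RA over CSF2RB, and overlap for KIT over IL3RA. In the ratios without overlap the 2 genes changed in opposite directions, each without overlap itself, which fixed the separation.

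Among ligands, KITLG, which encodes stem cell factor, read 135, 176 and 181 in the knockout libraries, against 48.0, 37.9 and 38.6 in the control libraries. All knockout values were well above the control values (log2 fold change 1.95, SE 0.21, adjusted p = 1.15e-07), the opposite direction to its receptor KIT. CSF1 had no read in any knockout library, against 18.4, 21.4 and 16.8 normalized counts in the control libraries. With a floor of 3 reads over the group, CSF1 was at least 18.9-fold lower in knockout cells. Its mean over all libraries was below the minimum of 10 used for the test, so it has no p here. TSLP, a cytokine of the epithelium, fell to 16.1 ± 8.37 in knockout cells, against 57.2 ± 7.15 in control cells. PDGFA, a platelet-derived growth factor, fell to 289.7 ± 13.7, against 378 ± 21.4. These were the listed ligands among 20 written in the list, and the other 16 were not analysed here.

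The list of blood growth factor receptors held 22 genes, of which the table gave 15, with 14 high enough to test. Of these 14, 7 were higher, 6 lower and 1 not called, near the 47.3% higher and 46.7% lower over all tested genes. Their median log2 fold change was 0.28, against 0.14 over all tested genes. CSF3R, the receptor of granulocyte colony stimulating factor, rose to 2794 ± 53.9 in knockout cells, against 1615 ± 60.2 in control cells. IL7R rose to 480.5 ± 22.9 against 205 ± 17.0, and EPOR, the erythropoietin receptor, to 564 ± 16.6 against 359 ± 18.6. FLT3, the third receptor tyrosine kinase of this family in the table with KIT and CSF1R, read 319, 339 and 272 in the knockout libraries, against 549.8, 605 and 637 in the control libraries. Its log2 change of -0.95 was a fall (SE 0.11, adjusted p = 2.31e-07). PDGFRB, a member of the same family, rose to 30.9 ± 5.86 against 5.60 ± 3.44.

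IL6R, a receptor chain for interleukin-6, fell to 310.4 ± 43.8 in knockout cells, against 587 ± 69.5 in control cells, and IL6ST, its signalling partner, rose to 907 ± 51.8 against 729 ± 11.9. IL6ST turned to a log2 value of -0.21 (adjusted p = 0.074) after the neighbour correction. IL11RA, the interleukin-11 receptor, fell to 101 ± 10.8 against 211 ± 21.7. IL2RG, the common gamma chain, was at 1389 ± 288 in knockout and 1154 ± 63.9 in control cells and was not called (adjusted p = 0.053). Its call changed with the setting: 8 alternatives called it higher, with adjusted p of 0.041 without SETD8 knockout 2 and 0.037 by edgeR. LIFR was too low to test.

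**Figure D3:**
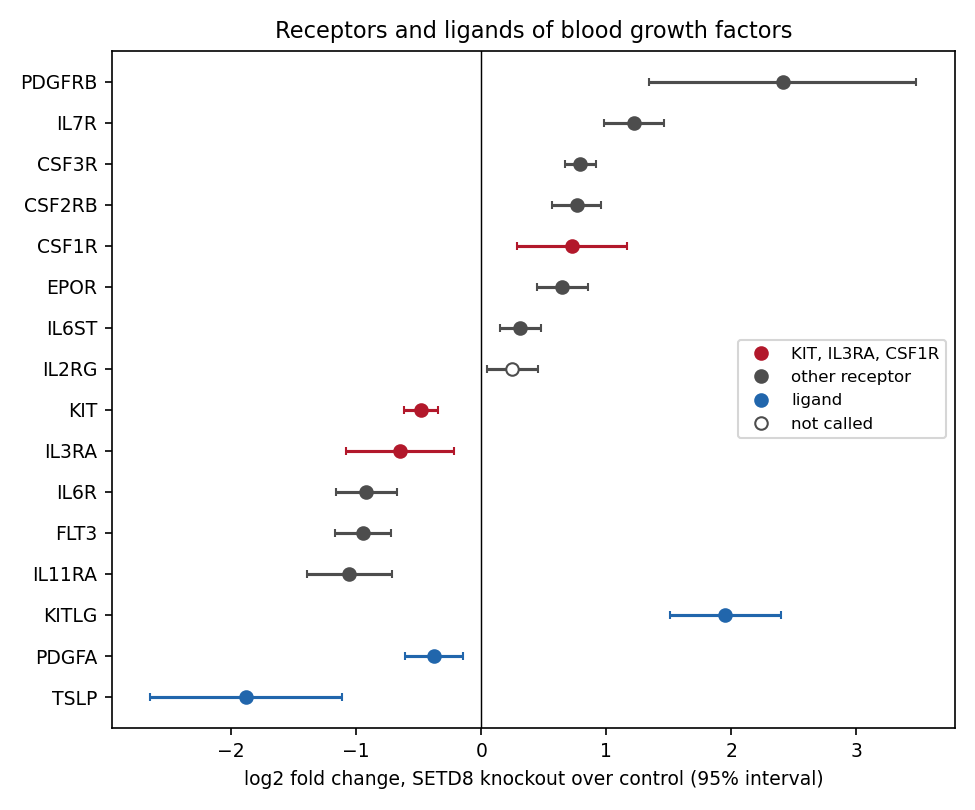
Log2 fold changes, SETD8 knockout over control, of tested receptors and ligands named in the text (points, with 95% intervals from limma). KIT at -0.48 and IL3RA at -0.65 lie with FLT3 at -0.95 on the lower side, and CSF1R at 0.73 lies beside CSF2RB at 0.76 on the higher side. The open point, IL2RG, was not called.

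The messengers downstream of these receptors were described by lists of adaptors, kinases and transcription factors. Over all tested genes 46.7% were lower and 47.3% higher, the shares to set beside each list count here and below. Counts near these shares say nothing particular about a list. In the JAK and STAT list 4 genes were lower and 1 was higher of the 5 tested, with a median of -0.60 against 0.14 over all tested genes. STAT5B, which interleukin-3 and KIT signals activate, read 2711, 2874 and 2846 in the knockout libraries, against 5056, 5253 and 5135 in the control libraries. It fell 1.83-fold (log2 -0.87, SE 0.05, adjusted p = 1.92e-11). STAT5A fell to 3578 ± 191 against 5414.5 ± 200.4, and STAT3 to 2859.8 ± 134 against 4999.5 ± 222. These 3 genes are all on chromosome 17, and STAT5A was at log2 -0.08 (adjusted p = 0.57) after the neighbour correction. The list median of -0.60 is the value of STAT5A, and after that correction 3 genes of the list were lower and 1 was higher. STAT6, the messenger of interleukin-4, rose to 3905 ± 64.1 against 2959 ± 164.

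Of 14 tested adaptors and proximal kinases, 6 were higher and 8 lower (median -0.29), and 4 were higher and 5 lower after the neighbour correction. FYN, a SRC family kinase that binds activated KIT, fell 3.44-fold to 435 ± 6.52 in knockout cells, against 1503 ± 122 in control cells. FER, a tyrosine kinase that acts downstream of KIT, fell to 915 ± 77.6 against 1473 ± 65.5. GAB1, a docking protein, fell to 232 ± 9.05 against 361 ± 15.3. SYK, a kinase of immune receptor signalling, rose to 1572 ± 75.0 against 776 ± 19.0. FER was at log2 -0.08 (adjusted p = 0.79) after the neighbour correction.

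The PI3K and AKT list had 5 higher and 6 lower genes of 11 tested, with a median of -0.18. PIK3CA, the catalytic subunit p110-alpha, fell to 822 ± 28.6 in knockout cells, against 1395 ± 109 in control cells, while PIK3CD, the p110-delta subunit of blood cells, rose to 1807 ± 259 against 1171 ± 52.1. FOXO1, a transcription factor that AKT inhibits, fell to 183 ± 21.0 against 262 ± 21.0. PIK3R3, a regulatory subunit, fell to 174 ± 21.6 against 251 ± 33.5, and its call ended without SETD8 knockout 2 (adjusted p = 0.051) and without control 1 (0.055). FOXO1 lost its call after the neighbour correction (log2 -0.29, adjusted p = 0.17). The count of higher genes was 1, against 5 lower, after the neighbour correction, and 3 without SETD8 knockout 2 or control 2.

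In the RAS and ERK cascade 5 genes were higher, 6 were lower and 1 was not called, with a median of -0.05. KSR1, a scaffold of the cascade, fell to 313 ± 51.4 in knockout cells, against 907 ± 82.1 in control cells. NF1, a brake on RAS, fell to 1786 ± 170.3 against 2989 ± 129, and the kinase BRAF to 836 ± 26.1 against 1292 ± 113. The GTPase HRAS rose to 655 ± 44.6 against 359 ± 7.07. NF1 was at log2 -0.13 (adjusted p = 0.25) after the neighbour correction. The number of higher genes was 3 without SETD8 knockout 2, control 1 or control 2, and 1 with upper-quartile scaling.

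The next lists hold genes that respond to these signals. In the list of ERK feedback and early response genes 10 of 13 were lower and 3 higher (median -0.78). After the neighbour correction 7 were lower and 2 higher, and with the filter at a mean of 50 the count of lower genes was 8. Of all tested genes 46.7% were lower, in a table selected for change, and no test of the list was run. PHLDA1, an early response gene, fell to 119 ± 12.2 in knockout cells, against 409.8 ± 45.2 in control cells. ETV5, a transcription factor induced by ERK, fell to 1097 ± 45.5 against 2181.9 ± 139, and EGR1, an immediate early factor, to 46.1 ± 12.4 against 140.2 ± 7.50. DUSP4, a phosphatase of the ERK pathway, rose to 872 ± 102 against 422 ± 81.5.

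Of 11 tested STAT5 target genes, 6 were lower, 3 were higher and 2 were not called, with a median of -0.21. The higher ones were PIM2 (log2 0.67), CCND3 (0.36) and SOCS2 (0.29). After the neighbour correction 6 were lower and 1 was higher. PIM1, a survival kinase, read 1567, 1479 and 1511 in the knockout libraries, against 4279.7, 4473 and 4639 in the control libraries, and fell 2.94-fold. BCL6, a repressor that STAT5 itself represses in blood cells, fell to 133 ± 26.1 against 1633 ± 107. With BCL6 among them, the counted targets do not share an expected direction. BCL2L1, which encodes BCL-XL, fell to 473 ± 5.29 against 757 ± 52.2. SOCS3, a feedback inhibitor of cytokine receptors, fell to 66.2 ± 1.43 against 110.0 ± 6.86, and was at log2 -0.31 (adjusted p = 0.35) after the neighbour correction.

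Negative regulators and genes of receptor turnover held 7 higher and 8 lower genes among 15 tested, and 2 higher and 6 lower after the neighbour correction. PTPRC, the phosphatase CD45, fell to 1344 ± 72.1 in knockout cells, against 3021 ± 159 in control cells, and PTPRJ, another receptor phosphatase, rose to 933 ± 53.9 against 327 ± 45.9. ADAM17, the protease that sheds KIT and CSF1R from the cell surface, fell to 673 ± 59.7 against 1113 ± 41.4.

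**Figure D4:**
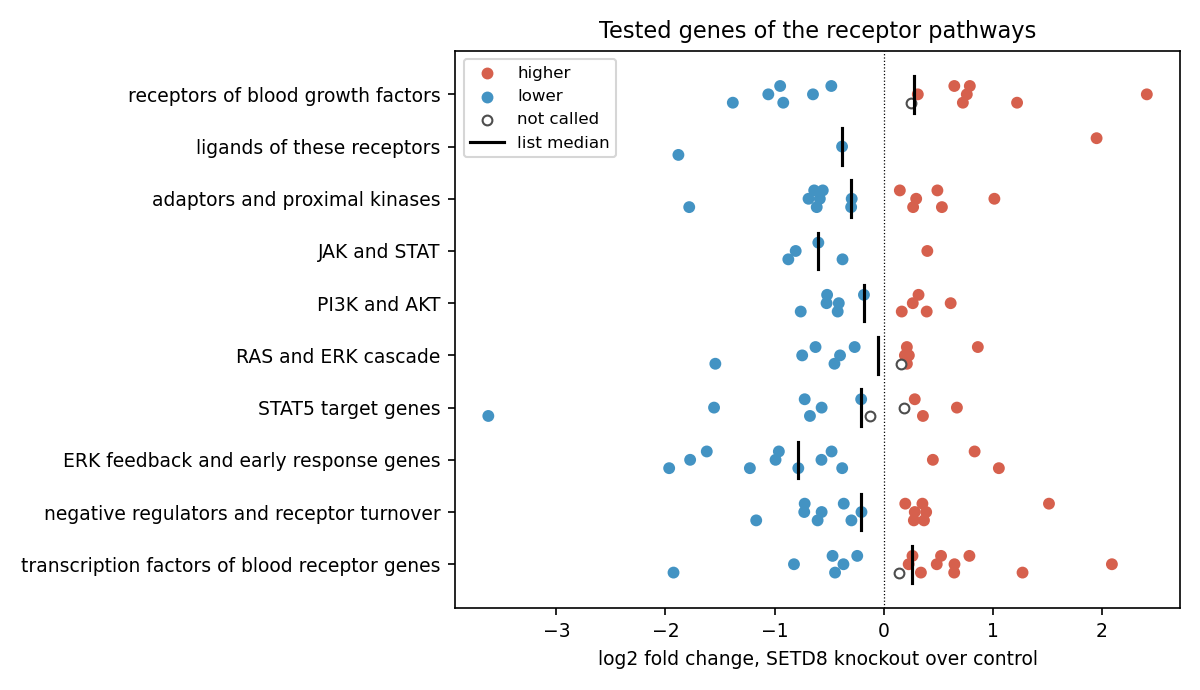
Log2 fold changes, SETD8 knockout over control, of tested genes in 10 lists of the receptor pathways. Each point is a gene and black bars are list medians. ERK feedback genes have the lowest median, -0.78, and the receptors have members on both sides with a median of 0.28.

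Transcription factors known to act at receptor genes went both ways, with 10 higher, 6 lower and 1 not called of 17 tested (median 0.27). CEBPA, which drives granulocyte and monocyte differentiation, rose to 258 ± 10.6 in knockout cells, against 169 ± 50.9 in control cells (log2 0.65, adjusted p = 0.0042). CEBPE, a factor of late granulocytes, rose to 526 ± 25.5 against 218 ± 30.3, and TAL1, a progenitor factor that binds near KIT, to 822 ± 32.8 against 476 ± 15.6. RUNX2 fell to 988 ± 74.6 against 1745.5 ± 83.9. RUNX1 and SPI1, which encodes PU.1, are both known to bind the promoter of CSF1R and were named after their values were seen. RUNX1 rose to 6691 ± 524 against 4262 ± 82.8, where reads of the fusion and of the normal allele cannot be told apart, and SPI1 to 3563 ± 134 against 2474 ± 134. Other listed members of their families went both ways. RUNX3 (log2 -0.44) fell, as did the ETS factor FLI1 (-0.37), while the ETS factors ERG (0.49), ETS1 (2.09) and ETS2 (0.27) rose. The part of these factors in the change of CSF1R was not tested.

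The starts of CSF1R and KIT are shown because CSF1R has separate promoters and moved in the other direction from KIT. RefSeq gives CSF1R an upstream and a downstream start, known for use in placenta and in myeloid cells, and the gene counts cannot say which was used. The windows hold the 250 bases before each start, 5′ to 3′ on the strand of the gene, from RefSeq on GRCh38.p14. Capitals mark matches on either strand to the letters TGTGGT for RUNX, GAGGAA for ETS factors such as PU.1, and AGATAA for GATA factors.
CSF1R, downstream start, chr5:150086555-150086804, minus strand: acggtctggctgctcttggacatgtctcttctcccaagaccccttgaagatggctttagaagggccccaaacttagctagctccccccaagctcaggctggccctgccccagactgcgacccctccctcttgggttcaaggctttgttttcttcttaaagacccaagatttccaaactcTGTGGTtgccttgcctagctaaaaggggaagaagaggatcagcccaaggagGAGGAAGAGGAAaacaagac
CSF1R, upstream start, chr5:150113366-150113615, minus strand: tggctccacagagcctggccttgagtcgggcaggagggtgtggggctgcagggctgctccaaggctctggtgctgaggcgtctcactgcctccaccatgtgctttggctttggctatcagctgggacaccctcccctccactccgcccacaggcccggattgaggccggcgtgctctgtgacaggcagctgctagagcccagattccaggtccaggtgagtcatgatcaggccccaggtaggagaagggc
KIT, chr4:54657707-54657956, plus strand: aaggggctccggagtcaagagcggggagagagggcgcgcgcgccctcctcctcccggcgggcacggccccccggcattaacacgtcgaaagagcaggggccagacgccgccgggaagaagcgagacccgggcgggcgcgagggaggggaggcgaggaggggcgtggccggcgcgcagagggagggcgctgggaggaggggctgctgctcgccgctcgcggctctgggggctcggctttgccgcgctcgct
The downstream window of CSF1R held 1 RUNX match, which began 71 bases before the start, and 2 adjoining ETS matches that began 20 and 14 bases before it. No match to the 3 motifs was found in the upstream window of CSF1R, in the window of KIT or in that of IL3RA. Over 35093 promoter windows of the same length, 11.0% held the RUNX letters, 23.6% the ETS letters and 9.17% the GATA letters, so these matches describe the letters and do not show binding.

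The genes around each receptor were counted to set each receptor beside its surroundings. Only listed genes could be counted, and over all tested genes 46.7% were lower and 47.3% higher. Within 1 Mb of KIT 4 genes were tested, of which 3 were lower and 1 was higher. The nearest were CHIC2, 593.2 kb upstream, with a log2 fold change of -0.72, and the long noncoding RNA AC069200.1, 647.2 kb downstream, with -1.30. That RNA had few reads, and its call ended without control 1 (-1.07, adjusted p = 0.088). Another of the lower genes near KIT, the pseudogene RPL21P44, averaged only 3.81 in knockout and 16.9 in control cells. Within 1 Mb of IL3RA 3 of 4 genes were higher and 1 was not called, and none was called lower. SLC25A6, a mitochondrial carrier 3.5 kb downstream, had a log2 fold change of 0.20, called except without control 1 (0.15, adjusted p = 0.056) and after the neighbour correction. PPP2R3B, 949.7 kb upstream, was at -0.23 and was not called, though 4 alternatives called it lower, edgeR among them (adjusted p = 0.0495).

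Around CSF1R 10 of 16 genes within 1 Mb were higher, 5 were lower and 1 was not called, with a median of 0.27. Over all tested genes 47.3% were higher and the median was 0.14. PDGFRB, 0.5 kb upstream of CSF1R on the same strand, was at log2 2.41 (adjusted p = 6.05e-04). HMGXB3, 0.1 kb beyond the other end on the opposite strand, was at 0.23 and lost its call without control 3 (0.20, adjusted p = 0.066) and with upper-quartile scaling (0.18, adjusted p = 0.051), and turned to -0.043 after the neighbour correction. With the median of genes within 5 Mb removed from the knockout libraries, the log2 fold changes were -0.38 for KIT (adjusted p = 5.95e-05), -0.85 for IL3RA (adjusted p = 0.0035) and 0.47 for CSF1R (adjusted p = 0.17).

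**Figure D5:**
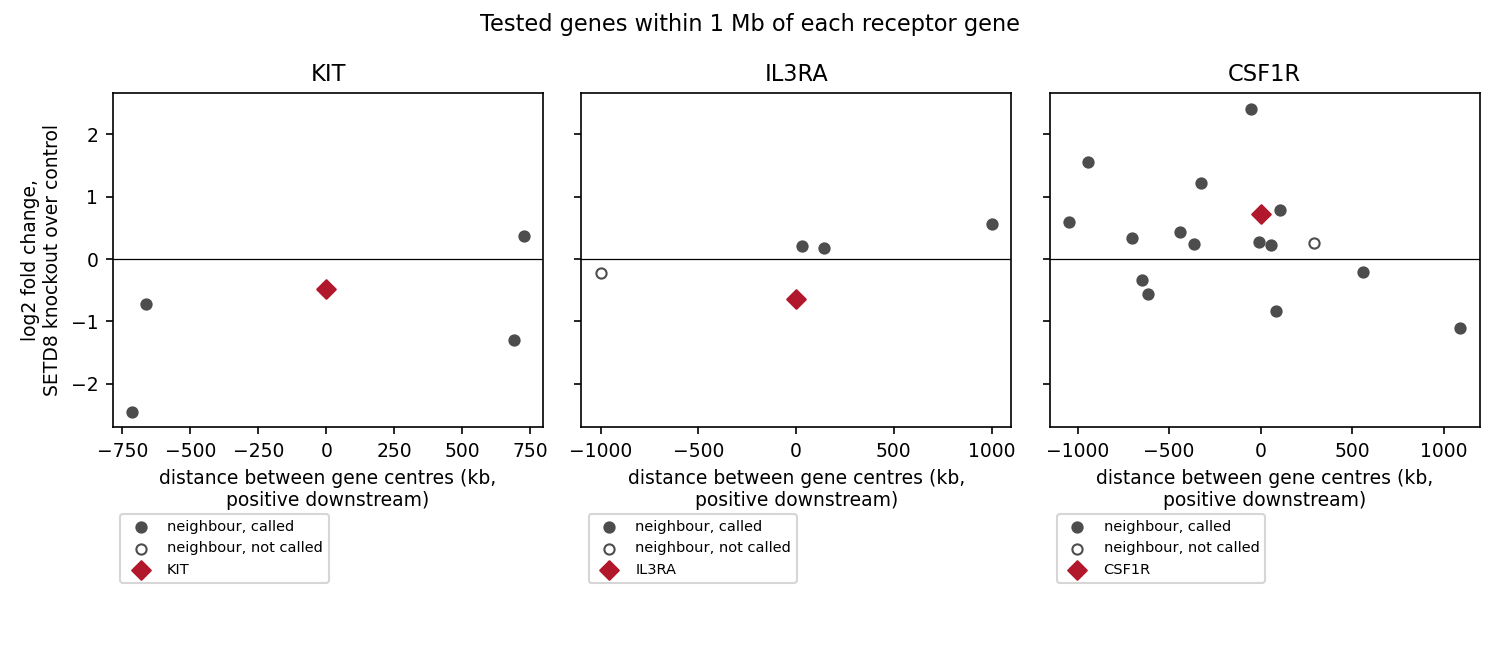
Log2 fold changes, SETD8 knockout over control, of tested genes within 1 Mb of KIT, IL3RA and CSF1R against the distance between gene centres in kb, positive downstream of the receptor gene. Diamonds are the receptors and open circles are genes that were not called. IL3RA, at -0.65, lies below all 4 of its tested neighbours, and CSF1R, at 0.73, has 10 higher neighbours of 16. Over all tested genes 47.3% were higher.

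The genes with the most similar pattern over the 6 libraries were found by the root mean square distance between log2 profiles, each centred on its own mean, over the 6095 protein-coding genes that averaged at least 100. For CSF1R the nearest was CEBPA, at a distance of 0.10. CEBPA read 247, 268 and 259 in the knockout libraries and 121, 164 and 222 in the control libraries, with control 1 lowest and control 3 highest, as for CSF1R. DAGLA and NDUFS7 followed, at 0.16 each. For KIT the nearest were SWAP70, GGNBP2 and DENND5A, at 0.02 each, with log2 fold changes of -0.46, -0.47 and -0.44. For IL3RA they were C10orf88, WDR47 and EMID1, at 0.10, 0.10 and 0.11. With many genes and 6 libraries in 2 groups, close profiles are easily found, and these distances are a description.

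Marker genes of blood cell types moved beside the receptors. Of the neutrophil granule markers in the table, without the receptors themselves, 5 of 6 were higher and MPO, which encodes myeloperoxidase, was lower, at 1541 ± 27.3 in knockout and 12254 ± 373 in control cells. PRTN3, AZU1 and RNASE2 rose most among them, by log2 4.90, 3.49 and 3.41, and PRTN3 and AZU1 are both on chromosome 19. With the filter at a mean of 50 the count of higher granule markers was 3. The summed level of the 6 fell, at 4091 to 4527 in knockout and 11996 to 12759 in control libraries, where MPO was its largest part. Of 20 monocyte and macrophage markers 5 were tested, 3 higher and 2 lower, and their summed level was 1247 to 1477 in knockout and 1124 to 1216 in control libraries. The summed level of these 5 was mostly FCGR1A, a high-affinity Fc receptor, at 1266 ± 103 against 1048 ± 51.0, which was at log2 0.03 (adjusted p = 1) after the neighbour correction. CD14 and CD163 were not analysed here. After the neighbour correction 2 of the 5 were higher and 1 was lower. Stem and progenitor markers, among which KIT and FLT3 are counted, had 4 higher, 3 lower and 1 not called of 8. FLT3 and KIT were among the lower ones, as given above, and CD33 and ANPEP among the higher, with CD33 at 990.0 ± 35.3 against 435 ± 53.6 and ANPEP at 268 ± 13.6 against 106 ± 17.5. Mast cell and basophil markers had 1 tested member, HPGDS, a prostaglandin synthase, which fell. The 3 tested genes written in the plasmacytoid dendritic cell list, IL3RA itself among them, were lower, with NRP1 at 739 ± 28.2 against 2448 ± 21.6 and SIGLEC6 at 10.1 ± 4.24 against 391 ± 22.2. The listed marker below the minimum, SPIB, went the other way, with 37 reads over the knockout libraries and 8 over the control libraries, and with no filter the list had 1 higher call. Of 4 listed megakaryocyte markers, both that could be tested were lower, among them ITGA2B, an integrin chain of platelets. GP9, below the minimum, had 18 reads in knockout and 1 in control libraries, and with no filter the list had 1 higher call. Of 2 erythroid markers EPOR was higher and TFRC lower. EPCAM, CD3D and CD79A, of the lymphoid and non-blood markers, were higher, though CD79A was not called after the neighbour correction (log2 0.39, adjusted p = 0.11). ITGA2B was not called under it (log2 -0.27, adjusted p = 0.48), and TFRC turned to 0.088 under the same correction. CD34, RUNX1T1, MPO and CD3D were named after their values were seen. The part of differentiation state in the receptor results was not tested.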

How the data were processed

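Polyadenylated RNA was sequenced from directional libraries, per the labels' protocols. The submitters' processing notes name hg38, HISAT2 and DESeq2, and the sources used here give no versions, counter or strand setting. The authors deposited normalized read counts per library, a signal that is never negative, with a p-value, its adjusted form and a log2 fold change per gene. Every value was a whole multiple of 1 step per library within 0.001 (100% of values), from which reads were recovered; for SETD8 knockout 2 and control 3 the step is so near 1 that this is less certain. All 7983 gene positions equalled GENCODE release 29.

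Genes with a mean of at least 10, 7516 in all, were tested two-sided on log2(value + 1) by limma-trend without a block (R 4.3.3 with limma 3.58.1), with Benjamini-Hochberg adjustment over the 19860 genes that the authors' p-values imply and a threshold of 0.05. The variance trend of limma was fitted on these genes alone. They were listed for a low p in these same libraries, so the limma p-values may be too small. Ratios were tested by exact permutation (scipy 1.17.1). The fit was run on simulated data in which few genes changed, unlike the genes listed here. That run does not show how the fit performs on these data. Alternatives were TMM and upper-quartile scaling, edgeR 4.0.16 and DESeq2 1.42.0 on recovered reads, filters, pseudocounts, a replicate block, leaving out each library, adjustment over tested genes alone, protein-coding genes only, and removal of the median change of genes within 5 Mb. The 18 gene lists, the members and the rules were chosen with earlier results of these data known. Named genes were the members, KMT5A, all listed receptors and ligands, per other list up to 4 called genes (3 for markers) that averaged at least 50, by size of change, the 3 most similar profiles and the nearest tested neighbours. Libraries of a group differed beyond counting noise (chi-square per degree of freedom 3.85 to 12.1). A few genes that these rules would name are not reported here, and list counts and medians include them.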

Additional observations from a re-analysis of the deposited data

How the results depend on the processing

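KIT stayed lower and called under all 18 alternatives, with log2 fold changes from -0.53 to -0.38. IL3RA and CSF1R kept their direction under all 18 and their call under 16 each. IL3RA ranged from -0.80 to -0.50 when single libraries were left out, and its call ended without SETD8 knockout 2 or control 2. CSF1R ranged from 0.44 to 1.00, and its call ended without control 1. KIT ranged from -0.49 to -0.47. After the neighbour correction CSF1R was at 0.47, not called, and 2247 genes were higher in place of 3557. No other alternative moved the counts of higher or lower genes by over 1.5 times. After the neighbour correction the log2 fold changes of 6 other named genes changed sign: C10orf88 (0.14), GGNBP2 (0.00080), HMGXB3 (-0.043), IL6ST (-0.21), RUNX1T1 (-0.29) and TFRC (0.088). The cause was not tested. The ratios kept their direction in all 36 recomputations. For the ratios without overlap this was fixed by the opposite changes of their genes and is no further test.

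With the replicate block the log2 fold changes were the same, -0.48 for KIT, -0.65 for IL3RA and 0.73 for CSF1R, and none of these 3 calls changed. Deviations of same-numbered libraries correlated at 0.0086, -0.0033 and -0.050, and those of differently numbered libraries at -0.031 to 0.036. No pairing by number was seen, though this cannot show whether same-numbered samples were prepared together. IL3RA and CSF1R had 66 to 190 reads per library, and their control libraries spread beyond counting error: CSF1R had 70 reads in control 1 (exact 95% Poisson interval 54.6 to 88.4) and 159 in control 3 (135 to 186), and IL3RA 146 in control 2 (123 to 172) and 93 in control 3 (75.1 to 114). Of 648 recomputed list counts, 23 moved by over 1.5 times.
The median log2 fold change of all tested genes shifted by -0.14 under the neighbour correction and by -0.26 with no filter on low values.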
